A study of Mus musculus with 12 samples.

Results

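The 10 genes described here belong to the unfolded protein response of the endoplasmic reticulum (ER): the transcription factor gene Xbp1 and 9 genes for ER chaperones and folding factors. They were followed in mouse liver. They were chosen by name and make up 10 of the 15140 genes measured. All 10 passed the filter on low counts. Messenger RNA was sequenced after polyA selection from 12 liver samples of male mice, 6 with prohibitin 1 deleted in adipocytes (Phb1adipo-/-, labelled Phb1 KO, here KO) and 6 labelled WT. Both groups ate a high-fat diet (60 kcal% fat) for 3 months, begun at 7 to 8 weeks of age. The promoter that drives the deletion in adipocytes, and any alleles the WT mice share with the KO mice were not given in the labels. The labels do not tie libraries to animals. The p-values therefore rest on the spread among the 12 libraries, which may be partly technical.

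Total counts ran from 30348123 to 40828767 per library. The hepatocyte markers Alb, Apoa1, Ttr, Serpina1a, Fgb, Cps1, Tat and Asgr1 were all present, with a summed level of 67571 to 93083 CPM, the usual unit of counts scaled to library size, in KO and 64508 to 95326 CPM in WT. Phb, the gene of prohibitin 1, stood at 88.6 to 100.4 CPM in KO liver and 80.0 to 91.2 CPM in WT liver, which does not check a deletion directed to fat cells. In whole tissue, fewer cells of a type and less RNA per cell cannot be told apart.

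Secreted and membrane proteins fold in the ER, where the Hsp70 chaperone BiP and its helpers hold them until they are mature. When unfolded protein builds up, 3 sensors in the ER membrane respond: IRE1, encoded by Ern1, splices the Xbp1 messenger so that it yields an active transcription factor, ATF6 is cut to release another, and PERK, encoded by Eif2ak3, slows translation. XBP1 and ATF6 switch on chaperone genes. Hepatocytes secrete many plasma proteins and keep this pathway in steady use, and XBP1 is also known for a part in hepatic lipid synthesis. Counts per gene sum the spliced and unspliced forms of Xbp1, so they do not show the activity of IRE1.

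The promoters of the chaperone genes are shown first because they hold the best known binding site of this response, the ER stress element (ERSE). It consists of CCAAT, then 9 bases of any kind, then CCACG. RefSeq promoter windows (GRCm38.p6, 250 bases before to 50 after a start site) were found for 8 of the 10 genes. An exact ERSE, searched on both strands, lay in 4 of these 8 windows, against 39 of all 32851 windows (0.119%). The 5 matches are printed with 5 bases on either side, 5′ to 3′ on the strand of the gene, and capitals mark the 10 fixed letters. The matches begin 65 bases before the start site in Hspa5, 212 and 107 in Hsp90b1, 105 in Dnajc3 and 126 in Creld2.
Hspa5, chr2:34772020-34772048, plus strand: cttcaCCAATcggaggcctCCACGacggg
Hsp90b1, chr10:86705633-86705661, minus strand: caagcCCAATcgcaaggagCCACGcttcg
Hsp90b1, chr10:86705528-86705556, minus strand: gagtgCGTGGtgaggcacgATTGGtgagt
Dnajc3, chr14:118937822-118937850, plus strand: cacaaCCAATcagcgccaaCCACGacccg
Creld2, chr15:88819515-88819543, plus strand: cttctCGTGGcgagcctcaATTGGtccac
The second Hsp90b1 match and the Creld2 match read on the opposite strand, so that CGTGG comes first and ATTGG last. The stretch of Hspa5 lies in an exon of a longer GENCODE M21 transcript of Hspa5, and the others lie outside annotated genes. With 1 of the 10 fixed letters allowed to differ, Pdia4 also matched (5 of 8 windows, against 1.5% of all), and with 2 allowed, Dnajb9 and Sdf2l1 did (7 of 8, against 17.9%). Xbp1 had no match at any of these settings. The shorter ERSE-II (ATTGG, any base, CCACG, both strands) and the core of the unfolded protein response element (TGACGTGG, both strands), held by 0.0365% and 0.676% of all windows, were in none of the 8. A match describes letters, not binding.

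The comparison of KO with WT asks whether liver expression of these genes differed when prohibitin 1 was missing from adipocytes. None of the 10 changed by the test, although the estimates were positive for 10 of 10, with a median log2 fold change of 0.50 against 0.00 over all genes. The count past an adjusted p of 0.05 was 0 of 10 (edgeR quasi-likelihood test, Benjamini-Hochberg over 15000 genes), where 1.15% of all genes were called higher in KO, 1.49% lower and 2.64% either way. DESeq2 and limma-voom also called 0 of the 10, where they called 3.75% and 1.09% of all genes higher in KO. At an unadjusted p under 0.05, Hspa5, Hyou1, Manf and Sdf2l1 passed, 4 of 10, against 10.7% of all genes higher in KO at that level. Positive estimates were found for 50.6% of all genes. Without KO library 5 the median of the 10 was 0.28.

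**Figure D1:**
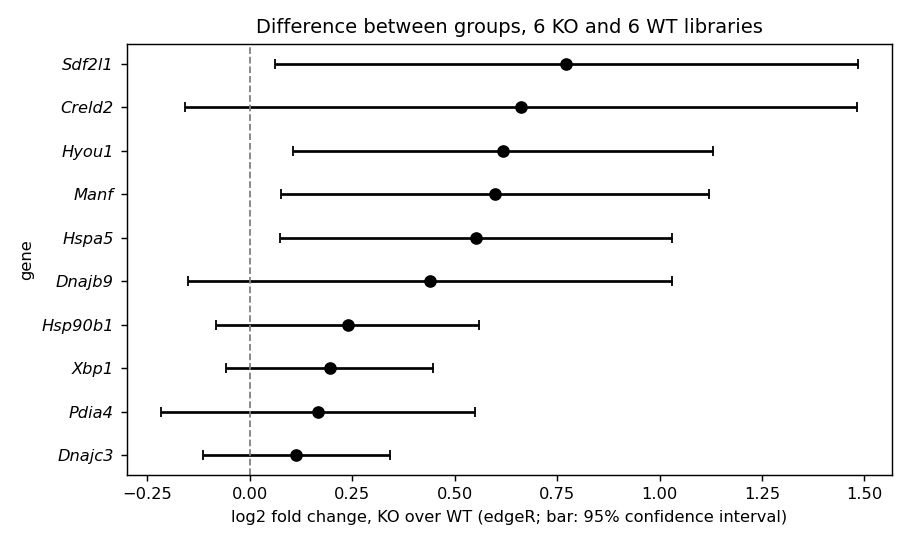
Log2 fold change of KO over WT for the 10 genes (x axis), with 95% confidence intervals from the edgeR fit, 6 libraries per group. The intervals of Sdf2l1, Hyou1, Manf and Hspa5 lie above 0 before adjustment over all genes, and those of the other 6 genes include 0.

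Hspa5 encodes BiP, the Hsp70 of the ER, and is the most abundant of the 10 (chromosome 2, 34771970 to 34777547, plus strand, GRCm38). Its level was 821 CPM in the lowest KO library, 1556 at the median and 1805 in the highest, and 704, 926 and 1358 CPM in WT. KO libraries 1, 2, 5 and 6 lay above all WT libraries, whereas KO libraries 3 (821 CPM) and 4 (909 CPM) lay inside the WT range. On the log2 scale KO exceeded WT by 0.55 ± 0.22 (SE over 6 and 6 libraries; 95% interval 0.07 to 1.03; edgeR, Benjamini-Hochberg adjusted p = 0.178), and an exact two-sided permutation test of this gene alone gave p = 0.0714. Its reads made up 38.8% ± 2.47 of the reads of the 10 genes in the KO libraries and 35.2% ± 3.51 in the WT libraries (SD of 6).

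Helpers of BiP come next. Hyou1 encodes GRP170, which exchanges the nucleotide of BiP (chromosome 9, 44379490 to 44392369, plus strand). Its lowest, median and highest levels were 190.0, 378 and 487 CPM in KO and 160, 212 and 318 CPM in WT. Again 4 KO libraries lay above all WT libraries and KO libraries 3 and 4 were the low ones. The log2 fold change of 0.62 ± 0.24 (SE; 95% interval 0.10 to 1.13) had the smallest adjusted p of the 10 (edgeR, Benjamini-Hochberg adjusted p = 0.164; exact permutation p = 0.0606, unadjusted).

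Sdf2l1, which works with an ER J-protein to keep BiP clients soluble (chromosome 16, 17130138 to 17132383, minus strand), had the largest estimate. Its levels were 23.7, 59.9 and 87.1 CPM in KO (lowest, median, highest) and 21.3, 29.1 and 48.1 CPM in WT. WT libraries 1 and 6 (47.2 and 48.1 CPM) stood above the other WT libraries, and 4 KO libraries stood above both. The log2 fold change was 0.77 ± 0.33 (SE; 95% interval 0.06 to 1.48; edgeR, Benjamini-Hochberg adjusted p = 0.200; exact permutation p = 0.0823, unadjusted).

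The 2 J-protein genes differed from each other in spread. Dnajb9 encodes ERdj4, which restrains IRE1 and feeds misfolded proteins to degradation (chromosome 12, 44205559 to 44210326, minus strand). It ran from 60.1 CPM in KO library 4 to 166.6 CPM in KO library 5, with a KO median of 92.0 CPM, and from 46.4 to 99.8 CPM in WT with a median of 78.9 CPM. Only KO libraries 2 and 5 exceeded every WT library. Dnajc3 encodes P58IPK (chromosome 14, 118937976 to 118981697, plus strand) and kept a narrow range of 235 to 326 CPM in KO and 220.3 to 309 CPM in WT. Their log2 fold changes were 0.44 ± 0.27 (95% interval -0.15 to 1.03) and 0.11 ± 0.11 (95% interval -0.11 to 0.34; SE, edgeR, Benjamini-Hochberg adjusted p = 0.375 and 0.579). With 1 library left out Dnajc3 ran from 0.07 (WT library 2, and likewise KO library 2 or 5) to 0.16 (WT library 1).

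The remaining folding machines of the ER lumen showed small differences. Hsp90b1 encodes GRP94, the Hsp90 of the ER (chromosome 10, 86690209 to 86705509, minus strand), and stood at 448 to 796 CPM in KO and 474 to 658 CPM in WT. KO libraries 1, 2, 5 and 6 held its higher KO values, while KO libraries 3 and 4 lay below all WT libraries. Pdia4 encodes ERp72, a disulfide isomerase (chromosome 6, 47796141 to 47813430, minus strand), with 164 to 361 CPM in KO and 207 to 325 CPM in WT. The log2 estimates were 0.24 ± 0.15 (95% interval -0.08 to 0.56) for Hsp90b1 and 0.17 ± 0.18 (95% interval -0.22 to 0.55) for Pdia4 (SE; edgeR with Benjamini-Hochberg, adjusted p = 0.377 and 0.632). Exons of Hsp90b1 share 84 bases with Gm15344 on the same strand and 415 bases with 1810014B01Rik on the other, so a part of its reads is uncertain.

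Manf and Creld2 encode soluble ER proteins that are made under ER stress and can be secreted. Manf, mesencephalic astrocyte-derived neurotrophic factor (chromosome 9, 106838312 to 106891979, minus strand), stood at 66.2, 145 and 167 CPM in KO (lowest, median, highest) and 60.2, 82.5 and 111 CPM in WT. Its KO libraries divided as for Hspa5, with 1, 2, 5 and 6 above all WT libraries and 3 and 4 within them. The log2 fold change was 0.60 ± 0.24 (SE; 95% interval 0.08 to 1.12; edgeR, Benjamini-Hochberg adjusted p = 0.182; exact permutation p = 0.0866, unadjusted). Exons of Manf share 146 bases with Dcaf1 and 166 with 4930524O07Rik on the opposite strand and 14 with Rbm15b on the same strand, and these reads are uncertain.

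Creld2 (chromosome 15, 88819646 to 88826683, plus strand) varied most. It ran from 35.6 CPM in KO library 3 to 168.7 CPM in KO library 5, a 4.74-fold range within 1 group, and from 29.0 to 74.7 CPM in WT. The medians were 78.1 CPM in KO and 52.9 CPM in WT, and 3 KO libraries lay above all WT libraries. The log2 fold change was 0.66 ± 0.38 (SE; 95% interval -0.16 to 1.48; edgeR, Benjamini-Hochberg adjusted p = 0.336), and it was 0.33 without KO library 5. Leaving out that library also lowered the estimates of Dnajb9 to 0.24, Hsp90b1 to 0.15 and Pdia4 to 0.07, and leaving out KO library 3 raised Pdia4 to 0.27.

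Xbp1, the transcription factor gene (chromosome 11, 5520659 to 5525893, plus strand), followed another pattern. Its lowest, median and highest levels were 208, 263 and 315 CPM in KO and 181, 228 and 282 CPM in WT. The lowest KO value was that of KO library 5, which held the highest level of 6 of the 10 genes, and KO libraries 3 and 4, low for most chaperones, stood at 265 and 262 CPM. The log2 fold change was 0.19 ± 0.12 (SE; 95% interval -0.06 to 0.45; edgeR, Benjamini-Hochberg adjusted p = 0.360), with 0.13 without KO library 6.

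In the authors' deposited table, which was made from these same counts, the smallest adjusted p of the 10 was 0.0533 for Sdf2l1. That table gave Hspa5 0.0571, Manf 0.0657 and Hyou1 0.0791, and its fold changes had the same sign for all 10.

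**Figure D2:**
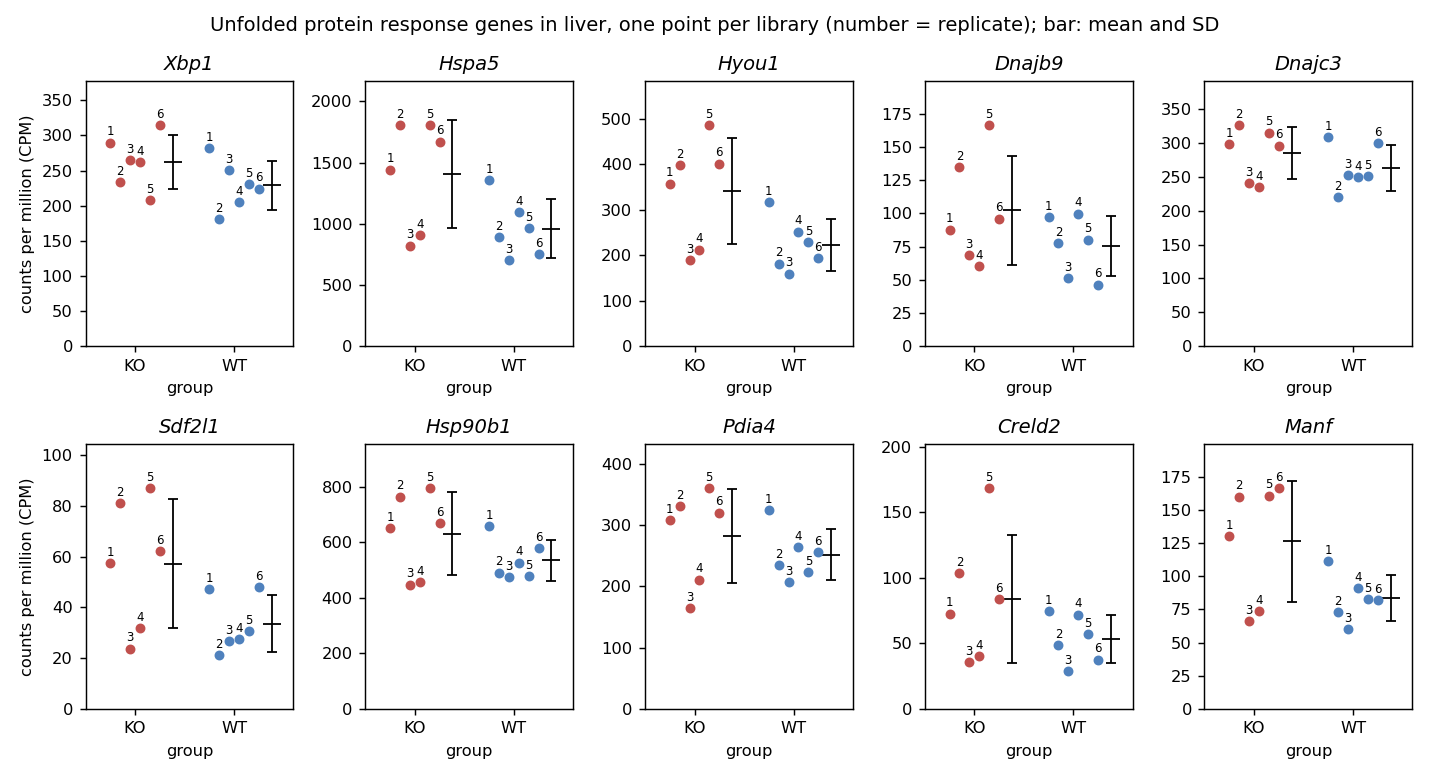
Level of each of the 10 genes in CPM (y axis, from 0) in the 6 KO and 6 WT libraries, 1 point per library with its replicate number, beside the mean and SD of each group. KO libraries 3 and 4 lie within or below the WT points for the chaperones, and KO libraries 2 and 5 are the highest of the 12 for 8 of the 10 genes.

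Levels can be set against each other between genes only per length. As CPM per kilobase of merged exons, Hspa5 stood at 333 ± 105 among KO libraries and 227 ± 57.1 among WT libraries (SD of 6). Hsp90b1 followed with 156 ± 37.0 and 133 ± 18.0, Pdia4 with 118 ± 32.1 and 105 ± 17.3, and Xbp1 with 80.7 ± 11.7 and 70.5 ± 10.9, and neighbours among these 4 differed by more than 1 SD of either gene in both groups. The other 6 lay between 35.8 and 61.5 CPM per kilobase in KO and between 23.7 and 51.3 in WT. In KO, neighbours in order of level lay within 1 SD of both genes. In WT all lay within the larger SD of the pair, but some not within the smaller, as for Dnajc3 (51.3 ± 6.61) and Creld2 (38.9 ± 13.4). Hyou1 (30.8 ± 7.90), Sdf2l1 (30.3 ± 10.2) and Dnajb9 (29.6 ± 8.82) lay within 1 SD of their neighbours among these 3.

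The 10 genes varied widely between libraries of the same group. KO library 5 held the highest level of the 12 for 6 genes and KO libraries 2 and 6 for 2 each. KO library 3 was the lowest KO library for 7 genes, and KO library 4 for 2. Among WT libraries, 1 was highest for 8 genes and 3 lowest for 6. Relative to the WT median of each gene, the median over the 10 genes was 0.96 in KO library 5, 0.84 in KO library 2, 0.56 in KO library 6 and 0.41 in KO library 1 on the log2 scale, against -0.19 in KO library 3 and -0.13 in KO library 4. The same measure ran from -0.32 in WT library 3 to 0.42 in WT library 1. For 6 of 10 genes at least 3 KO libraries lay above all WT libraries, where 18.8% of all genes did so, and the groups overlapped for all 10 (2.53% of all genes had groups that did not overlap).

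**Figure D3:**
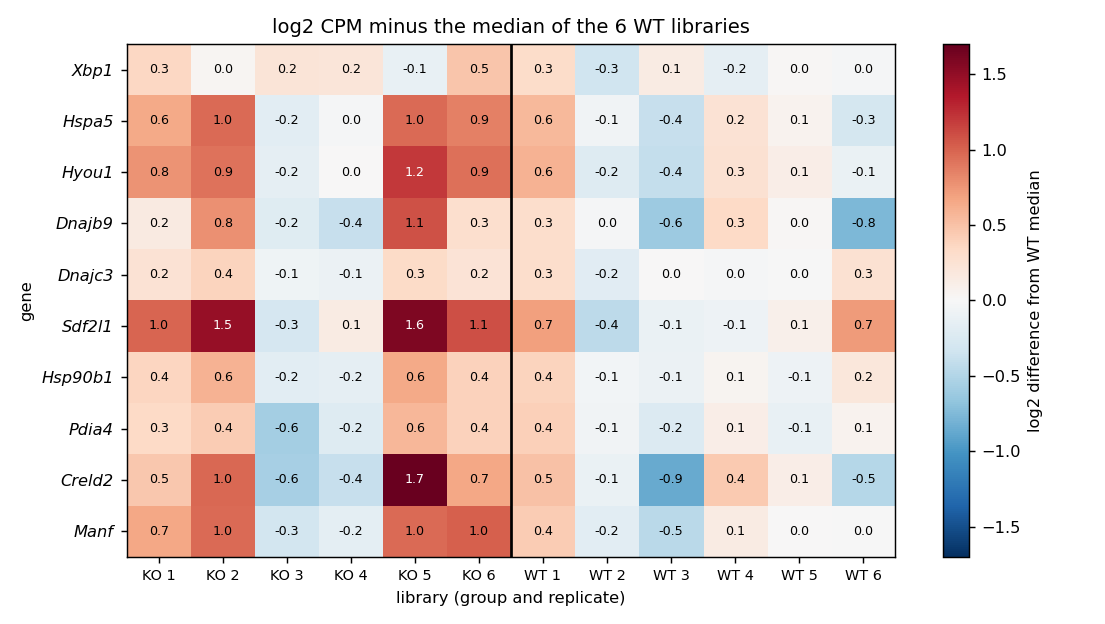
Log2 CPM of each gene (rows) in each library (columns) minus the median of the 6 WT libraries, with the KO libraries left of the line. Red columns mark KO libraries 1, 2, 5 and 6 and WT library 1, and the Xbp1 row stays pale where the chaperone rows are deep red.

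Spread within a group was wide for these genes. The median SD of log2 CPM over the 10 was 0.53 in KO and 0.32 in WT, against 0.22 and 0.18 over the 12881 genes that averaged 1 CPM or more. The KO spread was larger than the WT spread for 9 of 10 genes, and for 60.4% of all. It was at least 2 times the WT spread for 1 of 10 genes, and for 15.0% of all. Summed reads of the 10 genes took 0.358% ± 0.104 of KO counts and 0.273% ± 0.0519 of WT counts (SD of 6 libraries).

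The 9 chaperone and folding genes moved together from library to library, and Xbp1 was less like them over all 12. With group means subtracted, Pearson's r over the 12 libraries had a median of 0.88 over the 36 pairs of chaperone genes (0.45 to 0.97). It was closer in KO (median 0.96, 0.83 to 0.99, 6 libraries) than in WT (median 0.71, -0.16 to 0.98, 6 libraries). Hspa5 and Hyou1 were the most alike pair (0.97), and Dnajb9 and Dnajc3 the least (0.45). Between Xbp1 and the 9 others the median r was -0.01, from -0.35 with Dnajb9 to 0.22 with Dnajc3. This pooled value joined unlike groups: the median was -0.28 in the 6 KO libraries (-0.62 to -0.12) and 0.37 in the 6 WT libraries (-0.04 to 0.75). KO libraries 2 and 5 lay farthest from the median library in the mean log2 level of the 10 genes, and KO libraries 3 and 4 lay farthest from their group mean. Without KO libraries 2 and 5 the median r was 0.84 among the chaperone pairs and 0.48 between Xbp1 and the others. Without KO libraries 3 and 4, a choice made after the data were seen, it was 0.72 (lowest chaperone pair 0.008) and 0.07. KO libraries 2 and 5 were also chosen from these same values. They were high for the chaperones but ranked 7 and 10 of 12 for Xbp1, so a higher r without them decides nothing. All values of a library share its scaling, and these coefficients are descriptions without a test.

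**Figure D4:**
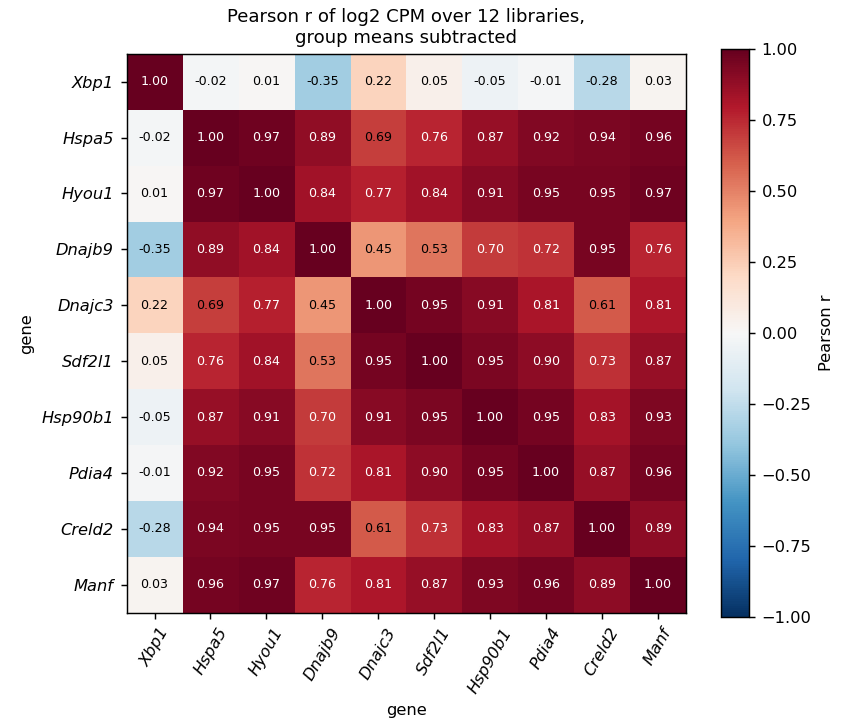
Pearson's r between the log2 CPM of each pair of genes over 12 libraries after subtracting the mean of each group (both axes list the 10 genes). The chaperone genes form a block with r of 0.45 to 0.97, and the Xbp1 row lies between -0.35 and 0.22.

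Among 12871 other genes that averaged 1 CPM or more, the 10 with the highest mean r to these genes over the 12 libraries were Cdk2ap2, Derl3, Ncoa5, Prrc1, Sel1l, Hspa13, Dpagt1, Srprb, Tfg and Osbp, with a mean r of 0.75 to 0.79 (median over all genes 0.00). Derl3 and Sel1l serve ER-associated degradation, Hspa13 is an Hsp70 of the microsomes, Dpagt1 makes the first step of the N-glycan precursor and Srprb anchors the signal recognition particle receptor. Cdk2ap2 rose by 0.47 ± 0.11 on the log2 scale (SE; edgeR, Benjamini-Hochberg adjusted p = 0.0408), and Hspa13 and Srprb also rose, though Cdk2ap2 passed in 9 of 19 alternatives. Its call was lost with total counts, with limma-voom and when any of KO libraries 1, 2, 5 and 6 or any of WT libraries 2 to 5 was removed. Derl3, by contrast, had an estimate of 0.02 ± 0.44 and Sel1l of 0.11 ± 0.15 on the log2 scale (SE; edgeR with Benjamini-Hochberg, adjusted p = 0.986 and 0.728). Without KO library 5 they were -0.27 and 0.02.

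Upstream of the chaperones, 1 of 6 genes for stress sensors and the proteases that cut ATF6 passed, where 1.15% of all genes were called higher. Of the 6, 3 were positive and 3 negative, and over all genes 50.6% were positive. The 1 call, of Atf6b, held in 9 of 19 alternatives. Atf6b, a relative of ATF6, rose from 20.8 to 24.3 CPM in WT (median 22.0) to 22.5 to 32.2 CPM in KO (median 29.4), with 5 of 6 KO libraries above all WT libraries (log2 0.37 ± 0.08 SE; edgeR, Benjamini-Hochberg adjusted p = 0.0353). Ern1 stood at 46.7 to 121 CPM in KO and 62.9 to 110 CPM in WT. Values for Ern1 (0.13 ± 0.21), Eif2ak3 (0.20 ± 0.19) and Atf6 (-0.08 ± 0.09) did not pass (log2 fold change, SE). With 1 library left out, Ern1 ran from 0.02 (KO library 3) to 0.26 (KO library 4), Eif2ak3 from 0.07 (KO library 2) to 0.27 (KO library 4), and Atf6 from -0.15 (KO library 1) to -0.04 (KO library 6). In the PERK arm 0 of 10 genes passed over all genes (3 were higher at an unadjusted p under 0.05, against 10.7% of all genes). Here 7 were positive and 3 negative (Asns, Trib3 and Sesn2), from -0.54 to 1.01 with a median of 0.41, with Atf4 at 0.53 ± 0.14 (adjusted p = 0.0556) and Ppp1r15a at 0.37 ± 0.15 (log2, SE; adjusted p = 0.188, edgeR, Benjamini-Hochberg). Atf4, the transcription factor of this arm, passed in DESeq2 and when KO library 1 or WT library 6 was left out.

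Around the chaperones stand the genes that bring proteins into the ER, fold them, discard them or ship them. Of 15 other ER chaperone genes, Hspa13 rose by 0.50 ± 0.11 (13 positive, median 0.10). Of 12 disulfide isomerases and oxidases, 0 passed, and 4 were higher at an unadjusted p under 0.05 (10.7% of all genes). All 12 were positive and the median was 0.20, with Ero1a at 0.28 ± 0.08 and Erp29 at 0.30 ± 0.09. Ero1a passed in DESeq2 and without KO library 4, and Erp29 without WT library 6. Of 15 degradation genes, Selenos, a membrane protein of the retrotranslocation complex, rose by 0.34 ± 0.07 (12 positive, median 0.19). Values are log2 fold changes with SE. Over all genes 50.6% were positive and 1.15% were called higher.

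Genes of entry and export included the other 3 that passed (1.15% of all genes were called higher and 50.6% were positive). Of 21 genes of the translocon, signal peptidase and oligosaccharyltransferase, 21 were positive with a median of 0.27, 16 had an unadjusted p under 0.05 (10.7% of all genes) and 2 rose over all genes. These were Srprb (0.57 ± 0.11) and the signal peptidase gene Spcs2 (0.42 ± 0.08). Of 14 vesicle coat genes, Sec23b, a COPII coat subunit, rose by 0.66 ± 0.12 (10 positive, median 0.13). It ran from 53.9 to 80.4 CPM in KO and from 36.5 to 49.2 CPM in WT, so the groups did not overlap. Heat shock chaperones outside the ER, cytosolic except for the mitochondrial Hspd1, Hspe1 and Hspa9, had 0 of 12 past the threshold. Of the 12, 1 was higher at an unadjusted p under 0.05 (10.7% of all genes), 11 were positive and the median was 0.18. Hsp90aa1 stood at 0.41 ± 0.18 and Dnajb1 at 0.29 ± 0.19 (log2, SE), or 0.11 without KO library 5.

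In all, 6 of these 105 genes rose and 0 fell (edgeR, Benjamini-Hochberg adjusted p from 0.0179 for Sec23b to 0.0371 for Hspa13, with 1.15% of all genes called higher). Estimates were positive for 89 of the 105, and for 50.6% of all genes. The mitochondrial share of counts was 5.39% to 6.41% in KO and 5.10% to 5.59% in WT, and its part in these differences was not tested. Each of the 6 stayed positive under all 19 alternatives, and passed in 8 (Hspa13), 9 (Atf6b), 14 (Selenos), 15 (Spcs2), 16 (Srprb) and 17 (Sec23b) of them. The count was 0 when WT library 2 or WT library 4 was left out. It was 1 with KO library 6 removed, 2 with WT library 5 removed and 18 with WT library 6 removed. Scaling by total counts gave 3 and DESeq2 gave 16. Exact permutation of single genes gave p = 0.00216 for Sec23b, Srprb and Selenos, the smallest that 6 against 6 allow, and 0.00433 to 0.00866 for the other 3 (unadjusted). Srprb shares 888 exon bases with a readthrough model, Gm20425, on the same strand.

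**Figure D5:**
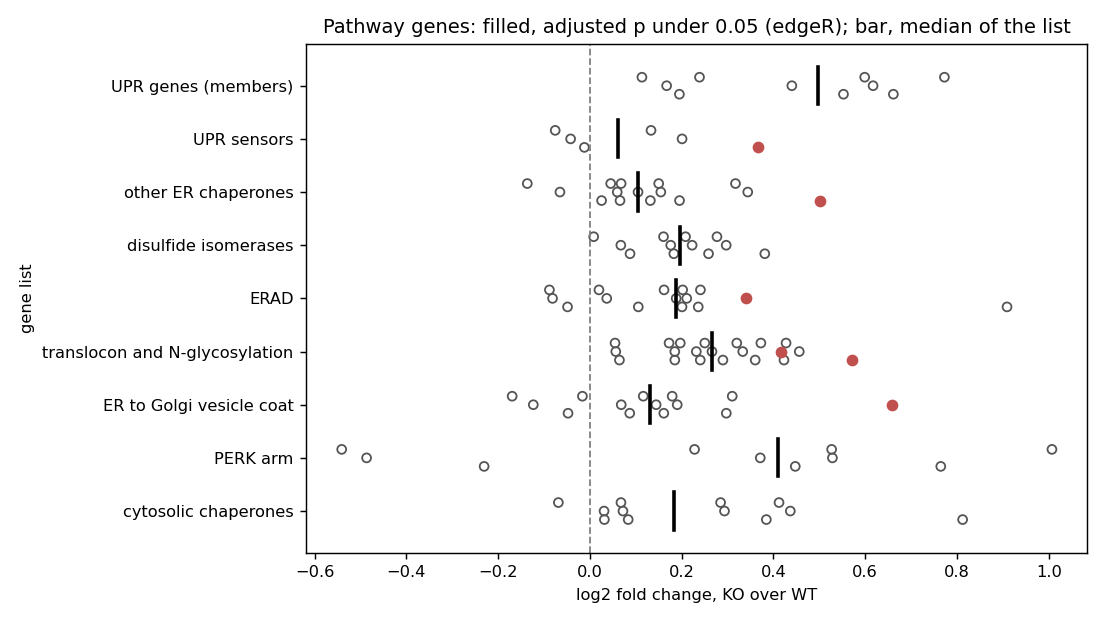
Log2 fold change of KO over WT (x axis) for every tested gene of the 10-gene set and of 8 pathway lists (rows). Filled points passed an adjusted p of 0.05 in edgeR. Black bars mark list medians, from 0.06 for the sensors and the proteases that cut ATF6 to 0.50 for the 10 genes.

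The exact ERSE of the printed promoters was carried by 37 genes in all, 33 of them outside the 10. Of the 33, 6 were in the pathway lists: Calr, Canx, Pdia6, Ero1b, Syvn1 and Derl3. Of the 17 tested outside the 10, 14 were positive, with a median log2 fold change of 0.18, and 0 passed in edgeR (2 higher and 1 lower at an unadjusted p under 0.05). Over all genes 50.6% were positive, and at that unadjusted level 10.7% were higher and 1583 of 15000 lower. The largest estimate was that of Syvn1, the ubiquitin ligase of ER-associated degradation (0.91 ± 0.34 SE; edgeR, Benjamini-Hochberg adjusted p = 0.156), which was 0.56 without KO library 5. For the 4 with an exact ERSE among the 10, the estimates given above ran from 0.11 for Dnajc3 to 0.66 for Creld2, with intervals that overlap.

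Genes of the circadian clock and of macrophages also differed between the groups. Of 6 clock genes on the Arntl side 1 rose (median 0.72), and of 10 on the Dbp side 10 were negative and 2 fell (median -0.86). Over all genes 1.15% rose, 1.49% fell and 7414 of 15000 were negative. Arntl stood at 5.19 to 18.8 CPM in KO and 2.16 to 11.1 CPM in WT, and Dbp at 9.07 to 68.3 and 64.8 to 154 CPM. Both missed the threshold in edgeR and passed it in DESeq2, in limma-voom and without WT library 6. Dbp also passed with a filter of 1 CPM and without KO library 3. Their summed level on the Dbp side was 324 to 596 CPM in KO and 580.2 to 982 CPM in WT, and KO library 3, low for chaperones, was the highest of the KO libraries with 596 CPM. KO libraries 4 and 5 followed with 513 and 493 CPM, and KO libraries 1, 2 and 6 had 431, 359.8 and 324 CPM, so libraries high for chaperones stood in the middle and at the low end. On the Arntl side the sums were 123 to 174 CPM in KO and 124 to 153 CPM in WT, with KO library 2 highest and KO library 3 lowest. All 11 macrophage markers were negative, 3 fell, and their sum was 184 to 351 CPM in KO and 317 to 491 CPM in WT. The part of the clock genes or of macrophages in the chaperone values was not tested.

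Plasma cells and pancreatic acinar cells are rich in ER chaperones. Of 10 plasma and B cell markers, 8 were measured, with a summed level of 8.98 to 23.9 CPM in KO and 12.1 to 34.0 CPM in WT. KO library 5, with the highest level of 6 of the 10 genes, had the lowest of these sums, and KO library 2, also high for the chaperones, had 21.2 CPM. Of 10 acinar markers 1 was measured, Cela1, at 19.4 to 53.4 CPM in KO and 15.1 to 50.01 CPM in WT. The part of plasma cells or acinar cells in the chaperone values was not tested. Stellate cell markers summed to 241 to 400.0 CPM and 247 to 389 CPM, sinusoidal endothelial markers to 166 to 226 and 180 to 246 CPM, and cholangiocyte markers to 44.1 to 133 and 35.9 to 99.2 CPM in KO and WT.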

How the data were processed

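For each gene and liver library the authors deposited a whole-number read count without normalization. Beside the counts stand, per the file headers, the authors' own log2 fold change with its SE, a test score and a p-value, raw and adjusted. Per the submitters' processing notes, the tools were FastQC, Trimmomatic, HISAT2, SAMtools, featureCounts and DESeq2 on GRCm38. The sources used here do not give the annotation release or how strand and shared reads were handled.

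Of 15344 rows, 204 repeats of a gene were dropped, leaving 15140 genes. Groups came from the sample titles. The main test was that of edgeR 4.0.16 under R 4.3.3, its robust quasi-likelihood F test after TMM scaling and filterByExpr (15000 genes kept, 140 removed), two-sided, Benjamini-Hochberg adjusted over all genes, threshold 0.05. CPM are TMM-scaled. Each SE is the unshrunken log2 fold change divided by the square root of F. DESeq2 1.42.0 and limma 3.58.1 served as alternatives. The script was tested on simulated counts. Exon lengths and positions came from GENCODE M21, promoters from RefSeq.

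The genes and lists were chosen with earlier results of these data known. Named were the 10 genes, Ern1, Eif2ak3 and Atf6, list genes past the threshold (otherwise the 2 with the smallest p), Arntl, Dbp and the 10 genes most alike. Genes with an ERSE were added after their values were seen.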

Additional observations from a re-analysis of the deposited data

How the results depend on the processing

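The 10 genes kept positive estimates and stayed short of the threshold under all 19 alternatives: other size factors, total counts, no filter or a stricter one, DESeq2, limma-voom, a replicate block and each library left out. Their smallest adjusted p was 0.0753 (Hyou1, DESeq2). Counts over all genes moved more. From 172 higher and 224 lower, total counts gave 94 higher, and DESeq2 568 higher and 646 lower. Pathway genes outside the 10 went from 6 higher to 3 with total counts and 16 with DESeq2. With 1 library left out, the counts over all genes ran from 8 to 320 higher and from 17 to 380 lower, both lowest without WT library 4 and highest without WT library 6, and the pathway count from 0 to 18. Without KO libraries 2, 5 and 6 in turn, 92, 102 and 36 genes were higher, and without WT libraries 2 and 5, 13 and 37; the lower counts were 143, 178, 50, 33 and 52. Replicate numbers did not pair the libraries (r of deviations -0.23 to 0.43 between same-numbered KO and WT libraries), and 1 of 6 KO libraries was most like the WT library of its own number. The replicate block gave 0 of the 10 genes, 6 pathway genes, and 146 higher and 228 lower genes. Of the 6 pathway genes 5 were shared: Hspa13 missed (adjusted p = 0.0524) and Ssr1 passed. Arntl also passed with the block (adjusted p = 0.0198). Derl3 turned negative with the block (-0.025) and ran from -0.27 to 0.31 with 1 library left out. None of the 20 groups of 6 libraries examined for the 10 genes held a single library far from the rest by Dixon's test, where chance gives 1. The 20 groups are not independent, because the genes move together. That test can also miss 2 libraries that stand apart together. In mean log2 level of the 10 genes, KO libraries 3 and 4 lay at -0.63 and -0.51 from their group mean. Depth was ample for the 10 genes, whose lowest count was 772 (Sdf2l1, KO library 3).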
